A study of Mus musculus with 8 samples.

Results

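Transcripts of 43 mouse genes for lysosomal hydrolases, lysosomal membrane proteins and the vacuolar proton pump were followed in ovarian neoplasia and in wildtype ovary. Members were the probes, other than control probes, whose accession belongs to a listed gene, and 42 of the 43 genes were found in this way, through 47 probes. Cd68 was not paired with a probe by the RefSeq table and was not analysed here. The 42 genes stand among 20141 genes that could be named on the array. All 42 passed the filter on dim probes, which asked for signal well above background on at least 3 arrays. All but Ctse did so on all 8 arrays.

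The series comprises 8 one-colour Agilent mouse expression arrays, 5 of ovarian neoplasia and 3 of wildtype ovary. The neoplasia came from mice whose genotype is written as Pgrcre/+PgrBLsL/+ in the series text and as Pgrcre/+mPgrLsL/+ in the sample labels, so both spellings combine a cre allele of Pgr, the progesterone receptor gene, with a Pgr allele marked LsL. Mice of both groups were killed at 33 weeks of age while cycling, and total ovarian RNA was labelled with Cy3. Cre from the Pgr locus acts in cells that express that gene, and the labels name no drug treatment. No label ties an array to an animal of its own, so the p-values below measure the spread between these samples, which may be technical in part. In RNA from a whole organ, fewer cells of a type and less RNA per cell cannot be told apart.

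Lysosomes digest proteins, glycans and lipids with hydrolases that work in an acid lumen. The vacuolar ATPase makes that acid: its cytosolic V1 sector splits ATP and its membrane V0 sector carries the protons. TFEB and its relatives TFE3 and MITF are transcription factors that bind E-box motifs near many lysosomal genes and switch them on when the kinase mTOR is inactive. Macrophages and osteoclasts are rich in lysosomes, and in the ovary lysosomal proteases are known for their part in ovulation and in the regression of the corpus luteum.

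Signal is given as the log2 of the processed intensity relative to the 75th percentile of the same array, so that 0 is the level of that percentile. Differences are neoplasia minus wildtype on this log2 scale. They were tested with limma over 25216 features with Benjamini-Hochberg adjustment, and a feature was called at an adjusted p below 0.05. The 75th percentile itself was 307 to 426 intensity units in the neoplasia arrays and 460 to 515 in the wildtype arrays. Between 29332 and 32920 of 55681 probes were well above background in neoplasia, and between 33737 and 34147 in wildtype. All arrays shared 1 slide, with neoplasia 1 to 4 in its first row and neoplasia 5 beside the 3 wildtype arrays in its second. Of the listed oocyte markers 8 of 12 were not well above background on any neoplasia array, whereas all 12 were in wildtype. All 8 luteal cell markers were lower in neoplasia, and 2 of them were not well above background on any neoplasia array.

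The listed lysosomal genes, chosen with earlier results of these data known, were higher in neoplasia more often than lower. Pathway genes outside the list, given below, were called in both directions. Of the 42 members 15 rose and 0 fell, while 17.0% of all features were called higher and 13.4% lower, 30.4% in all. A rise of at least 2-fold was called for 9 members, against 10.9% of all features. The median difference was 0.71 over the members and 0.14 over all features tested. Differences of 38 members were positive and those of 4 were negative. Every neoplasia array lay above every wildtype array for 16 members, the 15 called ones and Lamp2, and below for 0, while 23.2% of all features lay above and 16.0% below, 39.1% in all. The limma test at an unadjusted p below 0.05 gave 20 members higher and 1, Naglu, lower. The share of all features at that threshold was not counted, here or for the unadjusted counts below.

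The shift was seen on each neoplasia array. Measured against the wildtype mean, the median member stood at 0.74, 0.60, 0.79, 0.82 and 0.92 in neoplasia 1 to 5, while the median of all features stood at 0.18, 0.12, 0.16, 0.18 and 0.045. Between 28 and 34 of the 42 members exceeded the highest wildtype value on a given neoplasia array, and between 3 and 8 lay below the lowest. The same counts over all features were not made, so these numbers do not set the members apart from other genes. Summed over the members, the linear signal relative to the 75th percentile was 1754, 1407, 1660, 1810 and 1755 in neoplasia 1 to 5, against 800, 810 and 902 in wildtype 1 to 3. With this scaling every neoplasia sum was above every wildtype sum. The 75th percentile was itself lower in neoplasia, and sums under other scalings were not taken.

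**Figure D1:**
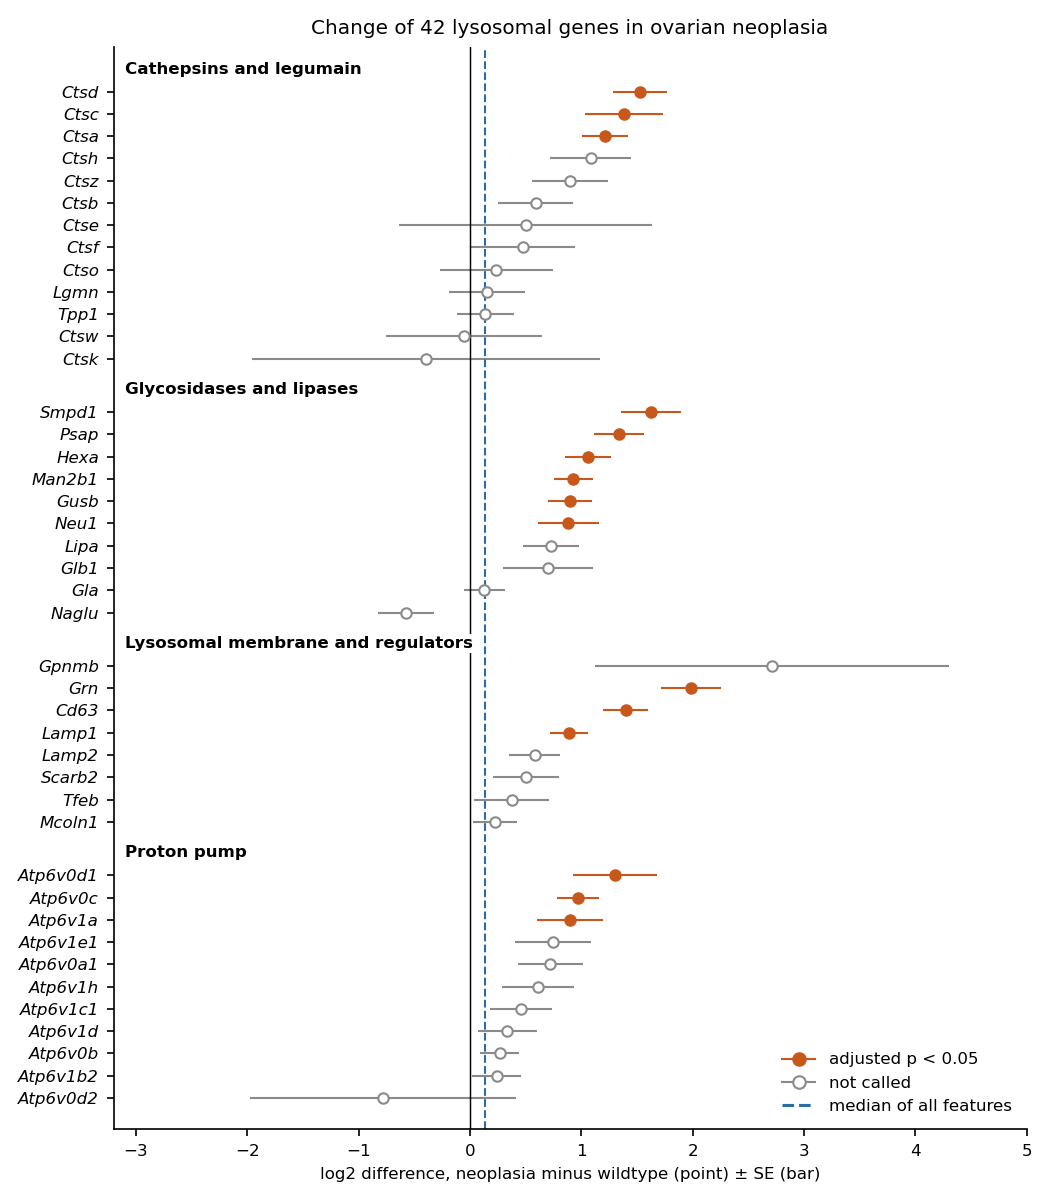
Log2 difference of neoplasia minus wildtype for each of the 42 members, grouped by role, with bars for the standard error and with called members marked. The differences run from -0.78 for Atp6v0d2 to 2.71 for Gpnmb, and all 15 called members lie above 0.

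How far each value stood above 0 depended on the scaling. When arrays were scaled to 6 spike-in probes, the median of all features moved to -0.47 and that of the members to 0.10, and 0 members were called in either direction (limma, 1 higher and 1 lower at an unadjusted p below 0.05). In the authors' deposited log2 values, which carry no scaling between arrays, the medians were -0.34 and 0.23, and 7 members were called higher and 1, Naglu, lower. The members' median exceeded that of all features by 0.57 in each of these settings and in the scaling used here. These scalings differ mainly by a constant for each array, so this gap could hardly change between them. It was 0.36 after normexp background correction and 0.37 after quantile normalization, which left 5 members higher and 2 lower (Gla and Naglu). Of all called features 56.0% were higher with the percentile scaling, 15.2% with spike-in scaling, 19.9% in the deposited values, 50.4% after quantile normalization and 67.1% after normexp background correction. The 15 called members kept a positive difference under each of the 19 alternatives run, although not their calls.

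Wildtype arrays also bore on the counts: without wildtype 1, 2 or 3 the number of members called higher was 9, 11 or 11, and 2840, 3214 or 4074 features were called in place of 7671. Within the second slide row, where neoplasia 5 alone faced the 3 wildtype arrays, 19 members were higher (against 10.5% of all features) and 0 lower with a median of 0.92, a comparison that takes the lone neoplasia to vary as the wildtype arrays do. With slide row as a block, the difference again rests on neoplasia 5 against the wildtype arrays, because the first row held neoplasia alone. The other neoplasia arrays add only to the estimate of spread. In that fit Ctsa, Ctsb and Ctsk were called higher (against 2.93% of all features) and 0 members lower. At an unadjusted limma p below 0.05, 17 were higher and 0 lower. Of the 15 called members 14 lost their call.

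E-box motifs in the members' promoters are shown because TFEB and its relatives bind them. RefSeq windows on GRCm38.p6, from 250 bases before to 50 after a start site, were found for 35 of the 43 listed genes, Cd68 among them. Both strands were searched for CACGTG and for TCACGTGA, which contains it; both motifs read the same on the 2 strands. CACGTG was present in 12 of 35 genes (34.3%), while 2187 of 27025 genes with a window held it (8.09%). TCACGTGA was present in 6 of 35 (17.1%), against 304 of 27025 (1.13%). Among members with a window, CACGTG was found in 5 of the 15 that were called higher and in 7 of the 19 that were not called, and TCACGTGA in 4 of the 15 and in 2 of the 19. A match is a description of these letters and not evidence of binding. The 6 genes with TCACGTGA, and Lamp1 with 4 copies of CACGTG, are given below from 5′ to 3′ on the strand of the gene. Every copy of either motif within a printed stretch is in capitals.
Atp6v0d1 (chr8:105566035-105566094, minus strand): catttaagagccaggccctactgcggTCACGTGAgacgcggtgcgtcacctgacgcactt
Ctsa (chr2:164833734-164833810, plus strand): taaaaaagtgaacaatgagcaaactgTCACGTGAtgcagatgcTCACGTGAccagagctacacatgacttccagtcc
Mcoln1 (chr8:3500447-3500506, plus strand): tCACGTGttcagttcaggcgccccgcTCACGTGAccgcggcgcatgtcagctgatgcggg
Ctsd (chr7:142387893-142387952, minus strand): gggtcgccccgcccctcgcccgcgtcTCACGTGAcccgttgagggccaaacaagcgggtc
Atp6v1a (chr16:44139358-44139417, minus strand): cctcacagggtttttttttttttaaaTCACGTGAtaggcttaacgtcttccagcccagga
Gla (chrX:134601167-134601255, minus strand): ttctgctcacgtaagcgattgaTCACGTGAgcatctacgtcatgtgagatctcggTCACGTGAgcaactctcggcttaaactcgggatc
Lamp1 (chr8:13159074-13159177, plus strand): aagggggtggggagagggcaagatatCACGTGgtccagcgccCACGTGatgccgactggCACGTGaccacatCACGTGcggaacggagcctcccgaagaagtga
The longer motif began 4 bases before the start site in Atp6v0d1, 46 before it in Mcoln1, 99 in Ctsd and 132 in Atp6v1a. The Mcoln1 stretch also holds a copy of the shorter motif alone, and the Ctsd window holds such a copy outside the printed stretch. In Ctsa 2 copies flanked the start site, in Gla both lay near the far end of the window, and in Lamp1 the 4 short copies lay between 61 and 15 bases before it. Of these 7 genes, Atp6v0d1, Atp6v1a, Ctsa, Ctsd and Lamp1 were called higher, while Gla (0.13, adjusted p = 0.609) and Mcoln1 (0.23, adjusted p = 0.392) were not called.

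Among the proteases, 3 of 13 genes rose (23.1%, near the 17.0% of all features), 0 fell, and the median difference was 0.50. Ctsd encodes cathepsin D, the main aspartic protease of lysosomes. It stood at 7.79, 6.91, 7.82, 7.69 and 7.49 in neoplasia 1 to 5 and at 5.98, 5.99 and 6.06 in wildtype 1 to 3. The groups were well apart, and the difference was 1.53 ± 0.24 (SE, limma adjusted p = 0.00366). A second Ctsd probe differed by 1.45 and was also called.

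Ctsa encodes cathepsin A, a serine carboxypeptidase that also protects β-galactosidase and neuraminidase from degradation. Its values were 6.03, 6.24, 6.67, 6.38 and 6.61 in neoplasia, against 5.01, 5.21 and 5.30 in wildtype. All 5 neoplasia arrays were higher, by 1.21 ± 0.21 on average (SE, limma adjusted p = 0.00515). A second, dimmer Ctsa probe differed by 0.16 and was not called, so the probes of this gene disagree in size.

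Ctsc encodes cathepsin C, the dipeptidyl peptidase that activates granule serine proteases of immune cells. It read 2.59, 3.37, 3.16, 1.82 and 3.10 in neoplasia and 1.36, 1.59 and 1.31 in wildtype. Neoplasia 4 came close to the wildtype arrays while the other neoplasias stood further off, and the difference was 1.38 ± 0.35 (SE, limma adjusted p = 0.0224). The call was lost when wildtype 1, 2 or 3 was left out, with an adjusted p of up to 0.0863.

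The other 10 proteases did not pass the test. Ctsh, an aminopeptidase, differed by 1.08 (adjusted p = 0.0544), with neoplasia 4 at 4.72 inside the wildtype range and the others between 5.32 and 6.13. Without that array the call was made (adjusted p = 0.0245). Ctsz, a carboxypeptidase, stood at 4.05 in neoplasia 1 and between 5.38 and 5.43 in neoplasia 2 to 5, against 4.21 to 4.29 in wildtype. Its difference was 0.90 (adjusted p = 0.0781), and without neoplasia 1 it was 1.17 (adjusted p = 0.00324). The cysteine proteases Ctsb, Ctsf and Ctso had differences of 0.59, 0.47 and 0.24. Ctsb, highest in neoplasia 5, was called with slide row as a block (1.504, limma adjusted p = 0.0481). That difference is neoplasia 5 against the wildtype arrays, as in the second row alone. Legumain (Lgmn), which cleaves after asparagine, and Tpp1, a tripeptidyl peptidase, differed by 0.15 and 0.14. Ctse, an aspartic protease, was above background on only 2 neoplasia arrays and 1 wildtype array.

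Cathepsin K varied most among the proteases above background on all arrays; it was singled out after its values were seen, as were Gpnmb and Ctsw below. Ctsk, the collagen-degrading protease of osteoclasts, read -1.46, -0.38, 0.66, 1.64 and 6.47 in neoplasia 1 to 5 and 1.53, 1.96 and 1.86 in wildtype. Neoplasia 5 was far above every other array, and neoplasia 1, 2 and 3 were below all wildtype arrays. The mean difference was -0.39 ± 1.56 (SE, limma adjusted p = 0.862), whereas neoplasia 5 against the wildtype arrays of its slide row gave 4.69, a value that rests on the array for which the gene was singled out. Markers of fibroblasts and smooth muscle, which also express Ctsk, had summed linear signals of 38.8, 25.4, 40.1, 121 and 513 in neoplasia 1 to 5, against 257 to 503 in wildtype, and 0 of these 9 markers were called (limma, 4 lower at an unadjusted p below 0.05). Without neoplasia 5, with spike-in scaling, and with replicate number as a block, 5 of the 9 were called lower. The replicate block sets neoplasia 1 to 3 against the wildtype arrays, because numbers 4 and 5 occur in neoplasia alone. With slide row as a block, where neoplasia 5 alone stands against the wildtype arrays, the median was 0.32, against -2.67 without the block. The part of fibroblasts and smooth muscle in the Ctsk values was not tested.

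Ctsw, a protease of cytotoxic lymphocytes, stood between -4.24 and -0.79 in neoplasia and between -2.51 and -1.86 in wildtype, with neoplasia 2 the highest. Summed markers of cytotoxic lymphocytes were likewise highest in neoplasia 2, at 14.3, with 3.47 to 7.30 in the other neoplasias and 2.34 to 3.20 in wildtype. Of 9 such markers tested 1 rose (11.1%, against 17.0% of all features), the T-cell receptor chain Cd3e (1.01, limma adjusted p = 0.039, lost without wildtype 1, 2 or 3 or neoplasia 3 or 4). Klrk1 and Ncr1 were not above background on any array. The part of cytotoxic lymphocytes in the Ctsw values was not tested.

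Of 10 genes of glycan and lipid breakdown, enzymes and the precursor Psap, 6 rose (60%, against 17.0% of all features) and 0 fell, with a median difference of 0.89. Quantile normalization gave 2 higher and 2 lower, and the replicate block 2 higher. With spike-in scaling and with the row block 0 were called higher by limma (0 and 6 at an unadjusted p below 0.05). Smpd1 encodes acid sphingomyelinase, which splits sphingomyelin into ceramide. It read 5.20, 5.12, 5.49, 4.92 and 4.31 in neoplasia and 3.34, 3.40 and 3.40 in wildtype. Neoplasia 5 was the lowest of the neoplasias and still above all wildtype arrays, and the difference was 1.63 ± 0.27 (SE, limma adjusted p = 0.00447).

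Psap encodes prosaposin, the precursor of the saposins that present sphingolipids to their hydrolases. It stood at 7.23, 6.63, 7.21, 6.96 and 6.48 in neoplasia, against 5.52, 5.56 and 5.61 in wildtype. The difference of 1.34 ± 0.23 (SE, limma adjusted p = 0.00499) exceeded the spread in both groups. Hexa encodes the alpha subunit of β-hexosaminidase, which degrades the ganglioside GM2. It read 5.25, 4.50, 5.04, 4.78 and 4.88 in neoplasia and 3.77, 3.91 and 3.81 in wildtype. Here too the groups did not overlap, with a difference of 1.06 ± 0.21 (SE, limma adjusted p = 0.00883).

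Rises of less than 2-fold were called for Man2b1, the lysosomal α-mannosidase (0.93, limma adjusted p = 0.00773), Gusb, β-glucuronidase (0.90, 0.0141), and Neu1, the lysosomal sialidase (0.88, 0.042). The Gusb call was lost without wildtype 1 (adjusted p = 0.0763). The Neu1 call was lost without any 1 of 6 arrays, namely each wildtype array and neoplasia 3, 4 and 5, with an adjusted p of up to 0.139. Lipa, the acid lipase of cholesteryl esters, was at 1.87 in neoplasia 2 and at 2.53 to 2.80 in the other neoplasias, against 1.61 to 2.02 in wildtype (0.73, adjusted p = 0.058). It was called when neoplasia 2 was left out (adjusted p = 0.0185). Glb1, β-galactosidase, differed by 0.70 and Gla, α-galactosidase, by 0.13. Naglu, which removes N-acetylglucosamine from heparan sulfate, was the one enzyme of this class with a negative difference (-0.58, adjusted p = 0.111), and it was called lower without neoplasia 5 (adjusted p = 0.0321).

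**Figure D2:**
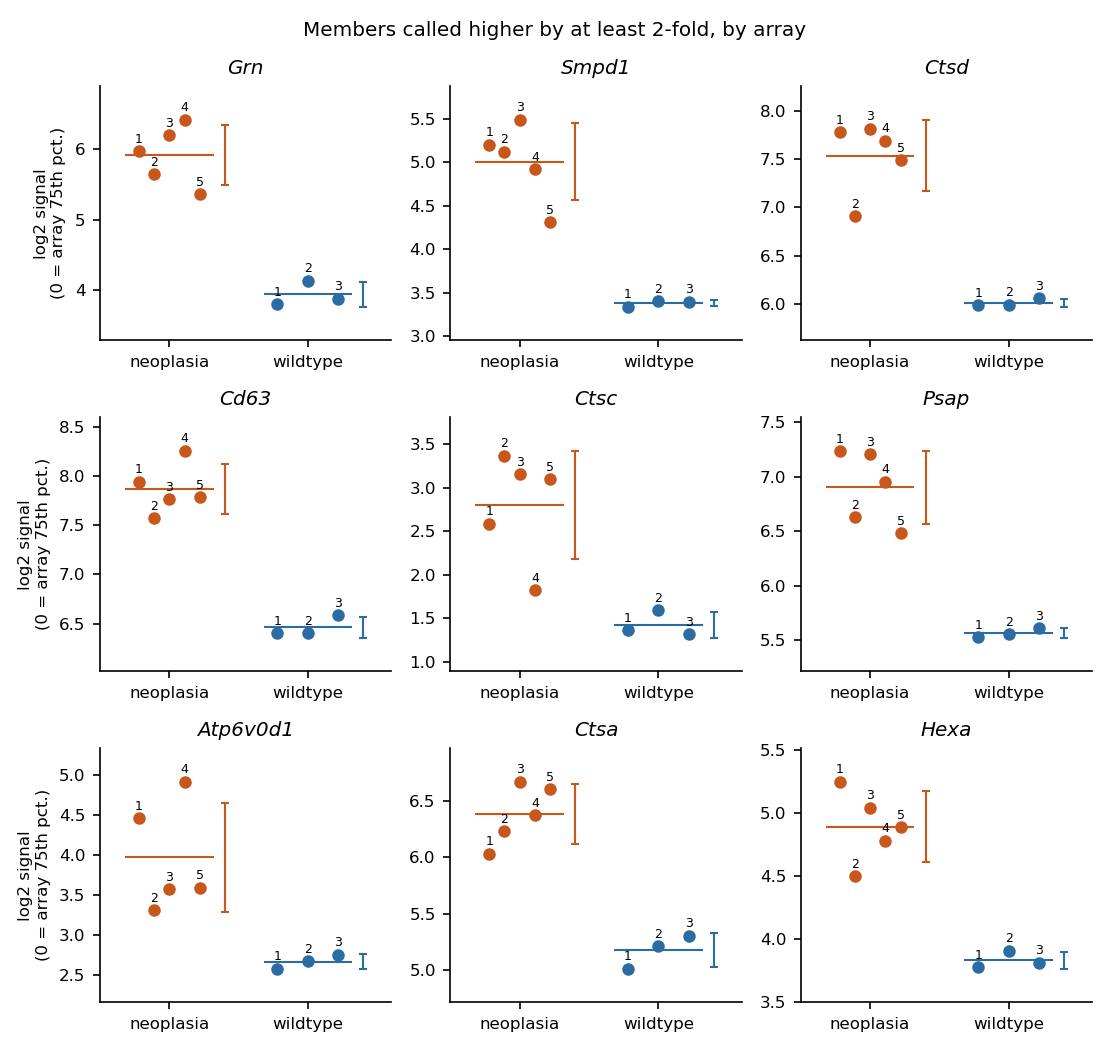
Log2 signal relative to the array's 75th percentile on each array for the 9 members called at least 2-fold higher, with points for arrays, a line for the group mean and bars for the SD (n = 5 neoplasia, n = 3 wildtype). In all 9 panels every neoplasia point lies above every wildtype point, and Ctsc in neoplasia 4 comes closest to the wildtype points.

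Of the membrane proteins and regulators 3 of 8 rose (37.5%, against 17.0% of all features), 0 fell, and the median difference was 0.73. Grn encodes progranulin, a secreted glycoprotein that lysosomes cleave into granulins. Its signal was 5.97, 5.64, 6.20, 6.42 and 5.36 in neoplasia 1 to 5 and 3.80, 4.13 and 3.87 in wildtype 1 to 3. The difference of 1.98 ± 0.27 (SE, limma adjusted p = 0.0019) was the largest among the called members, a 3.95-fold rise.

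Cd63, a tetraspanin of late endosomes and exosomes, stood at 7.94, 7.57, 7.76, 8.26 and 7.79 in neoplasia, against 6.40, 6.40 and 6.59 in wildtype. The spread within groups was small beside the difference of 1.40 ± 0.20 (SE, limma adjusted p = 0.00248). Lamp1, a main glycoprotein of the lysosomal membrane, rose by 0.89 (limma adjusted p = 0.00802), a call lost without wildtype 1 (adjusted p = 0.051). Its relative Lamp2, needed for autophagosome fusion and chaperone-mediated autophagy, was above wildtype on every neoplasia array without passing the test (0.58, adjusted p = 0.0883), and a second Lamp2 probe gave 0.66. Scarb2, a membrane protein that carries cargo to lysosomes, differed by 0.51 (adjusted p = 0.217). Mcoln1, the calcium channel of lysosomes, was described above with its motif.

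The gene for the regulator itself was not called. Tfeb read -1.65, -0.68, -0.41, -0.33 and -1.37 in neoplasia and -1.34, -1.12 and -1.34 in wildtype. Neoplasia 2, 3 and 4 were above all wildtype arrays while neoplasia 1 and 5 were below them, and the difference was 0.38 ± 0.34 (SE, limma adjusted p = 0.411). With spike-in scaling it was -0.23 and in the deposited values -0.10, so its sign was not settled.

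Gpnmb, a transmembrane glycoprotein of macrophages, osteoclasts and melanocytes and a known target of MITF, varied widely between neoplasias (SD of 3.07, n = 5). Its values were 5.88, -0.50, 2.15, 6.53 and 6.0 in neoplasia 1 to 5 and 1.56, 2.03 and 0.30 in wildtype. Neoplasia 1, 4 and 5 were far above wildtype, neoplasia 3 was just above its range and neoplasia 2 was below it. The difference of 2.71 ± 1.59 (SE) was not called (limma adjusted p = 0.217), but it was 3.84 without neoplasia 2 (adjusted p = 0.0337). Mitf, named after its values were seen, read 4.17, 1.57, 2.23, 3.97 and 3.39 in neoplasia and 1.58, 1.72 and 1.34 in wildtype (1.52 ± 0.59, SE, limma adjusted p = 0.0825). Neoplasia 1, 4 and 5 were highest for both genes, and neither gene was called. A link between them was not tested. Of the melanocyte markers 0 of 4 tested were called by limma, 0 also at an unadjusted p below 0.05, and Dct and Tyrp1 were not above background on any array.

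**Figure D3:**
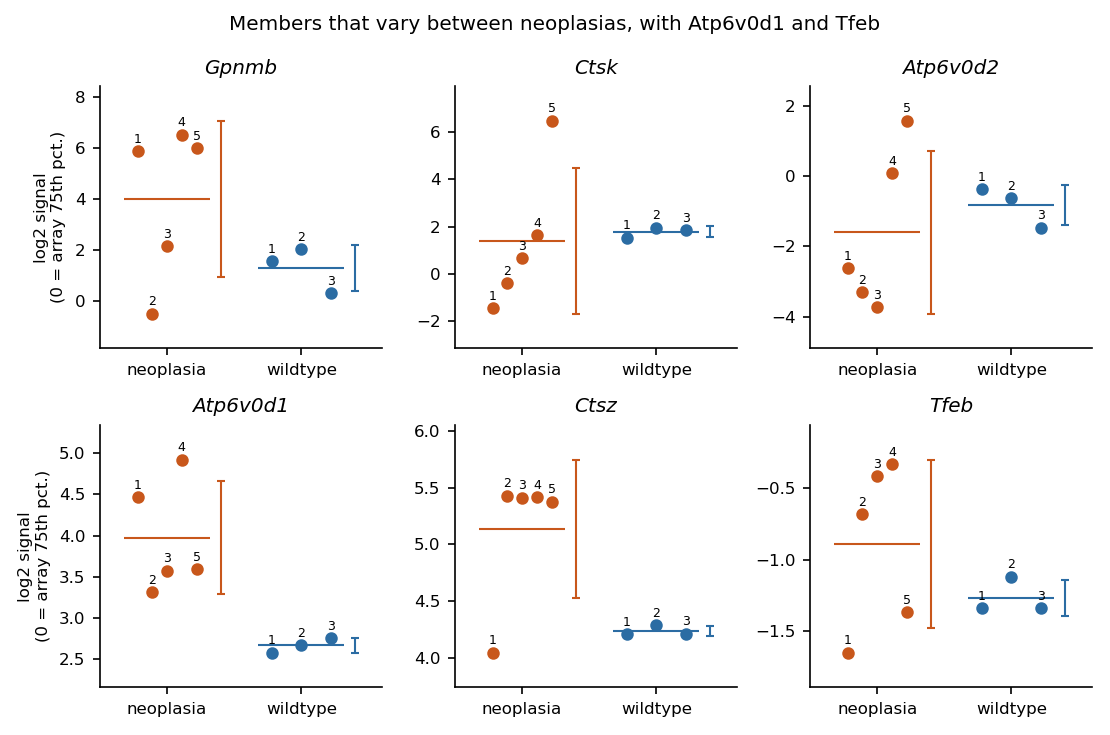
Log2 signal relative to the array's 75th percentile for Gpnmb, Ctsk, Atp6v0d2, Atp6v0d1, Ctsz and Tfeb, with a numbered point for each array, a line for the group mean and bars for the SD (n = 5 neoplasia, n = 3 wildtype). Ctsk is highest in neoplasia 5 at 6.47, Gpnmb splits the neoplasias, and Ctsz in neoplasia 1 lies at 4.05 below the other neoplasias.

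In the proton pump 3 of 11 genes rose (27.3%, against 17.0% of all features), 0 fell, and the median difference was 0.61. With quantile normalization, in the deposited values and with the row block, 0 of the 11 were called higher by limma (2 at an unadjusted p below 0.05 with the row block). The V0 sector gave 2 of the calls. Atp6v0c, the proteolipid of the proton-carrying ring, rose by 0.97 (limma adjusted p = 0.008), with neoplasia 3 the lowest of the neoplasias at 4.88 and the wildtype arrays between 4.09 and 4.41. Atp6v0d1 encodes the d subunit found in most tissues, which couples the ring to the central stalk. It read 4.47, 3.32, 3.58, 4.92 and 3.59 in neoplasia and 2.58, 2.67 and 2.76 in wildtype. Neoplasia 1 and 4 were the highest, and the difference was 1.30 ± 0.38 (SE, limma adjusted p = 0.034). That call was lost without wildtype 1, 2 or 3 or neoplasia 1, with an adjusted p of up to 0.116.

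Atp6v0d2 encodes the alternative d subunit, known from osteoclasts and from macrophages. It stood at -2.63, -3.31, -3.73, 0.08 and 1.58 in neoplasia 1 to 5, against -0.38, -0.62 and -1.47 in wildtype. Neoplasia 1, 2 and 3 lay below all wildtype arrays and neoplasia 4 and 5 above them, and the difference of -0.78 ± 1.20 (SE) was not called (limma adjusted p = 0.639). Neoplasia 5 against the wildtype arrays of its slide row gave 2.40, with 1 array against 3 and so no spread among neoplasias. With slide row as a block the same difference was not called (limma adjusted p = 0.327). A second, dimmer probe differed by -1.11 and was not called. Within an array, Atp6v0d2 minus Atp6v0d1 was -7.09, -6.63, -7.31, -4.84 and -2.01 in neoplasia and -2.96, -3.29 and -4.22 in wildtype. These values follow the change of one gene against the other and not their relative abundance. The group means differed by -2.08, which an exact two-sided permutation test over 56 splits of the arrays did not separate from 0 (p = 0.196, the smallest possible being 0.0179). For neoplasia 5 against the wildtype arrays of its slide row the difference was 1.48, a value with no test because 1 array stood against 3.

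Atp6v0a1, the large V0 subunit of neurons and other cells, differed by 0.72 (adjusted p = 0.0934) and was called without neoplasia 5 (adjusted p = 0.019). Atp6v0b, a second ring proteolipid, differed by 0.27. In the V1 sector only Atp6v1a, the catalytic subunit, was called (0.90, limma adjusted p = 0.0497). That call was lost without any 1 of 7 arrays, all but neoplasia 3, and its second probe gave 0.71. The other V1 genes were Atp6v1e1 (0.75) and Atp6v1d (0.34) of the stalks, Atp6v1h (0.61), a regulatory subunit, Atp6v1c1 (0.46), which helps hold the sectors together, and Atp6v1b2 (0.24), the partner of the catalytic subunit. None of these 5 passed the test.

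Within the second slide row, where 1 neoplasia array stood alone, the 9 members called at least 2-fold higher differed by 0.92 to 1.68. With the row as a block 1 of the 9, Ctsa, kept its call (limma adjusted p = 0.0421). The differences were the same, because both fits set neoplasia 5 against the wildtype arrays. Leaving out any 1 array lost no call for Grn, Smpd1, Ctsd, Cd63, Psap, Ctsa, Hexa, Man2b1 or Atp6v0c. Spread between neoplasias was larger than between wildtype arrays for members and for all features alike, with a median SD of 0.43 in neoplasia and 0.15 in wildtype for members, and of 0.47 in neoplasia and 0.20 in wildtype for all features. An SD above 1 among neoplasias was found for 5 of 42 members (Gpnmb, Ctsk, Atp6v0d2, Ctsw and Ctse) and for 16.3% of features.

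Lysosomal genes outside the list were described by lists of the same pathway. Of 53 other lysosomal genes 17 rose (32.1%, against 17.0% of all features) and 3 fell (5.66%, against 13.4%), with a median difference of 0.40. Among the genes that rose were Acp5, the tartrate-resistant acid phosphatase (1.86, limma adjusted p = 0.00837), Arsa, arylsulfatase A (1.84, 0.0109), and Ctsl, cathepsin L (1.67, 0.0433). Ctsl rested on 4 neoplasia arrays, because the spot was marked as an outlier in neoplasia 3, and its call was lost without any 1 of 7 arrays. Gm2a, the activator of GM2 breakdown by hexosaminidase A, fell by 1.49 (limma adjusted p = 0.00736), Arsb, arylsulfatase B, by 1.37 (0.0149) and Tmem175, a lysosomal ion channel, by 0.75 (0.0126). The last 2 calls were each lost without 1 of 2 wildtype arrays. Hexa and Gm2a were called in opposite directions. Without wildtype 1, 2 or 3 the list had 5, 7 or 7 genes higher, and with spike-in scaling 0 higher and 2 lower (limma, 3 higher and 6 lower at an unadjusted p below 0.05). Within the second slide row 10 were higher and 1 lower, and with the row as a block 0 in either direction (limma, 15 higher and 5 lower at an unadjusted p below 0.05).

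Of 14 other pump genes 5 rose (35.7%, against 17.0% of all features) and 3 fell (21.4%, against 13.4%), with a median of 0.12. Rises were called for Atp6v1f (1.22, limma adjusted p = 0.0101), a V1 subunit, Atp6v0e (1.09, 0.0048), a V0 subunit, Atp6ap1 (0.83, 0.0233), an accessory and assembly protein, and the a-subunit genes Atp6v0a2 (0.79, 0.0305) and Tcirg1 (0.74, 0.0499). The Atp6v0e call was kept with any 1 array left out. That of Atp6v1f was lost without wildtype 1 and those of Atp6ap1, Atp6v0a2 and Tcirg1 without any 1 of 2, 4 and 7 arrays. Atp6v0e2, a second e-subunit gene, fell by 2.32 (limma adjusted p = 0.00621), and Atp6v1g2, the G subunit known from neurons, by 1.88 (0.00811). Atp6ap1l was not well above background on any neoplasia array and was at least 4.22-fold lower there, a bound that sets the wildtype mean against the lowest signal above background. It passed the filter on dim probes through the wildtype arrays alone, so it could hardly be called in the other direction. It is 1 of the 3 genes counted as lower. Atp6v0e and Atp6v0e2, alternative genes for 1 subunit, were also called in opposite directions. Without wildtype 1, 2 or 3 the list had 1, 3 or 4 genes higher and 3 lower each time, and with spike-in scaling 0 higher and 4 lower (limma, 1 higher and 6 lower at an unadjusted p below 0.05). Within the second slide row 1 was higher and 2 lower, and with the row as a block 0 higher and 2 lower.

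Of 28 genes of lysosomal signalling and autophagy 11 rose (39.3%, against 17.0% of all features) and 1 fell (3.57%, against 13.4%), with a median of 0.60. Fnip2, a partner of folliculin in the control of TFE factors (1.87, limma adjusted p = 0.00342), Rab7, the GTPase of late endosomes (1.26, 0.00926), Uvrag, a subunit of the phosphatidylinositol kinase complex of autophagy (1.1, 0.00893), Gabarapl1, an autophagosome protein (1.05, 0.00556), and Lamtor2, part of the Ragulator scaffold of mTOR (0.93, 0.0277), rose most. Slc38a9, the arginine sensor upstream of mTOR, fell by 0.93 (limma adjusted p = 0.0311). The calls of Lamtor2 and Slc38a9 were each lost without any 1 of 5 arrays. Tfe3, chosen after its value was seen as a relative of Tfeb, rose by 0.64 (limma adjusted p = 0.0248). With spike-in scaling 0 genes of the list were higher and 1 lower (limma, 1 higher and 1 lower at an unadjusted p below 0.05). Without wildtype 1, 2 or 3 the list had 4, 5 or 7 genes higher. Within the second slide row 4 were higher and 2 lower, and with the row as a block 1 was higher and 0 lower.

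Markers of lysosome-rich cells were followed on the same arrays. Of 16 macrophage markers tested 9 rose (56.25%, against 17.0% of all features), 0 fell, and the median was 1.27. The largest rises were in the scavenger receptor Msr1 (2.32, limma adjusted p = 0.00661), the Fc receptor chain Fcer1g (1.83, 0.00458) and the complement gene C1qb (1.67, 0.00844). The summed linear signal of the macrophage markers was 160, 288, 155, 149 and 235 in neoplasia 1 to 5, against 83.0 to 90.3 in wildtype. Cd163 was not above background on any array. This sum was highest in neoplasia 2, where that of the lysosomal members was lowest (1407). It was lowest in neoplasia 4, where that of the members was highest (1810). With spike-in scaling 1 macrophage marker was called higher, in the deposited values 2, and without wildtype 1, 2 or 3 the count was 5, 5 or 6. Within the second slide row 10 were higher, and with the row as a block 2. Summed epithelial, endothelial, erythrocyte and cytotoxic lymphocyte markers also lay above wildtype on every neoplasia array. The macrophages' part in the lysosomal differences was not tested.

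Of 7 osteoclast and giant cell markers 2 rose (28.6%, against 17.0% of all features), Ocstamp (2.97, limma adjusted p = 0.000356), which takes part in cell fusion, and Nfatc1 (1.91, 0.00548), a transcription factor of osteoclasts. The Nfatc1 call was lost with spike-in scaling, with slide row as a block and in the second row alone. Their list summed to 5.69 to 12.8 in neoplasia and 5.89 to 11.1 in wildtype, and Calcr and Clec5a were not above background on any array. The part of such cells in the values of Atp6v0d2, Ctsk and Gpnmb was not tested.

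**Figure D4:**
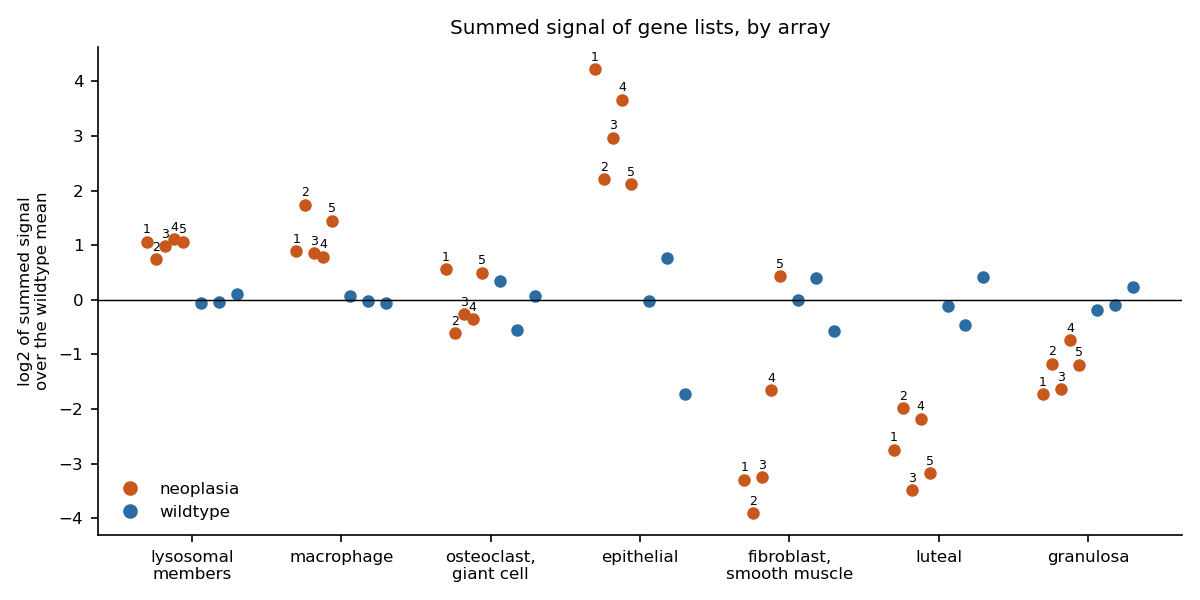
Log2 of the summed linear signal over the wildtype mean of that sum, for the lysosomal members and for 6 marker lists, with a numbered point for each neoplasia array (n = 5) and an unnumbered one for each wildtype array (n = 3). With the percentile scaling, sums of the lysosomal members, of the macrophage markers and of the epithelial markers lie above the wildtype points on all 5 neoplasia arrays. Fibroblast and smooth muscle markers lie above them in neoplasia 5 alone.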

How the data were processed

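The authors deposited 1 scanner file an array, with linear intensity values for each spot. Per the file headers, the software was Feature Extraction 11.0.1.1 and the probes were placed on mm9. The processed intensity was background-subtracted by that software and not scaled between arrays. The deposited value table holds log2 values that matched, within 0.001 in each of 37932 features, the log2 of the mean processed intensity, so it was not centred. Its array medians were 4.80, 5.37, 5.21, 4.99 and 5.33 in neoplasia and 6.03, 6.07 and 5.75 in wildtype. The submitters' processing notes name Partek without a role. No aligner applies to arrays.

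After removal of control and outlier spots, repeat spots of a probe were averaged. Each array's log2 processed intensity was set against its 75th percentile. A probe had to be well above background on 3 or more arrays to be tested, and the brightest probe stood for a gene. Accessions were named with RefSeq for GRCm38.p6, and 26576 of 55681 probes received a name. No probe was saturated. The test was limma 3.58.1 (R 4.3.3) on all 8 arrays without covariates, with 6 residual degrees of freedom, and the fit was tested on simulated data. The number of arrays limits the precision.

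The members and lists were chosen with earlier results of these data known. All members are named. Values on every array were given for members called at least 2-fold, for Tfeb and for both d-subunit genes. Of further pathway lists up to 5 and of marker lists up to 3 called genes a direction were named, and genes named beyond that are marked as chosen after their values were seen. Some genes that this rule names are not reported here. Alternatives were normexp with offset 50, quantile and spike-in scaling, the deposited values, other filters and probe summaries, a robust fit, replicate number and slide row as blocks, and each array left out.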

Additional observations from a re-analysis of the deposited data

Results flagged for a closer look

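In 3 of the 42 members 1 neoplasia array stood far from the other 4 by Dixon's test, which by chance picks out about 1 in 20 groups, so this number is near what chance gives. Ctsz was at 4.05 in neoplasia 1, with 5.38 to 5.43 in the other neoplasias. Lipa was at 1.87 in neoplasia 2, with 2.53 to 2.80 in the others. Atp6v0c was at 4.88 in neoplasia 3, with 5.23 to 5.36 in the others. Each low value came from a different array.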

How the results depend on the processing

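Of 19 alternatives, the number of features called (7671) became 4968 with spike-in scaling, 4712 with the replicate block and 1537 with the slide row block, and lay between 2840 and 9998 with 1 array left out. Members called higher (15) became 5 with quantile normalization, 0 with spike-in scaling, 7 in the deposited values, 8 with the replicate block and 3 with the slide row block, and 9 to 16 with 1 array left out. Members called lower (0) became 1 with normexp, 2 with quantile normalization, 1 in the deposited values and 2 with the replicate block, and 0 to 1 with 1 array left out. The causes were not tested. In the replicate block neoplasia 4 and 5 have no wildtype array of their number, so the difference there is that of neoplasia 1 to 3. Atp6v0d2 minus Atp6v0d1 (-2.08) was 1.48 with the slide row block and in row 2 alone, -3.52 with the replicate block, and -2.98 to -1.65 with 1 array left out.

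Signs turned in these members, which were not called with the main scaling. Normexp gave Ctsw 0.23. Quantile normalization gave Atp6v0b -0.16, Atp6v1d -0.14, Ctsb -0.18, Ctsw 0.16, Gla -0.69 (called), Lgmn -0.61, Mcoln1 -0.23 and Tpp1 -0.058. Spike-in scaling gave Atp6v0b -0.34, Atp6v1b2 -0.37, Atp6v1c1 -0.15, Atp6v1d -0.27, Ctsb -0.019, Ctse -0.11, Ctsf -0.14, Ctso -0.37, Gla -0.48, Lamp2 -0.028, Lgmn -0.46, Mcoln1 -0.38, Scarb2 -0.10, Tfeb -0.23 and Tpp1 -0.47. The deposited values gave Atp6v0b -0.21, Atp6v1b2 -0.24, Atp6v1c1 -0.016, Atp6v1d -0.14, Ctsf -0.0044, Ctso -0.24, Gla -0.35, Lgmn -0.32, Mcoln1 -0.25, Tfeb -0.10 and Tpp1 -0.34. The replicate block gave Ctsw 0.54 and Lgmn -0.082, and it called Atp6v0d2 (-2.40, limma adjusted p = 0.00829) and Ctsk (-2.17, 0.0326) lower. That block leaves neoplasia 4 and 5 out of the difference, the highest of the neoplasias for both Atp6v0d2 and Ctsk. Slide row, as a block and in row 2 alone, gave Atp6v0d2 2.40 (not called with the block), Ctsf -0.24, Ctsk 4.69 (called with the block), Ctso -0.29, Ctsw 0.073, Gla -0.042 and Tfeb -0.10. With 1 array left out, Ctse ranged from -0.58 to 1.95, Ctsw from -0.44 to 0.42, Lgmn from -0.14 to 0.46, Ctsk from -1.67 to 0.32, Tpp1 from -0.030 to 0.22 and Ctso from -0.041 to 0.45.

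Deviations of same-numbered arrays correlated at -0.054, -0.031 and -0.0015, and no array correlated best with its own number, so the replicate numbers were not taken as pairs. Counts of the further lists under these alternatives were added after seeing the data. All arrays lay on 1 slide.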

Other observations

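Other marker lists describe the tissue in which the lysosomal genes were measured. Beside their counts, 17.0% of all features were called higher and 13.4% lower. All 5 erythrocyte markers tested rose, among them the haemoglobin genes Hbb-bt (6.13, limma adjusted p = 0.000323) and Hba-a1 (5.44, 0.000644) and the haem synthesis gene Alas2 (5.54, 0.00228). Of these 5, 1 passed the filter on dim probes through the neoplasia arrays alone. The keratin genes Krt8 (4.01, limma adjusted p = 0.00825) and Krt18 (3.52, 0.00669) rose, while the epithelial adhesion genes Epcam (-3.76, 0.0225) and Cdh1 (-3.15, 0.0467) fell. The epithelial list held 8 tested genes, so 2 rose and 2 fell. Calls of Epcam and Cdh1 were lost without any 1 of 2 and 5 arrays, and with slide row as a block none of these 4 genes kept its call. Of 7 endothelial markers 2 rose, Cdh5 (1.54, limma adjusted p = 0.0179) and Vwf (1.21, 0.0382), calls that were lost without any 1 of 2 and 5 arrays.

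Of 6 neutrophil markers Elane (0.99, limma adjusted p = 0.0288) rose, Retnlg was at least 7.46-fold higher in neoplasia, and Ltf fell by 4.87 (0.028). Calls for these 3 genes were lost without any 1 of 4, 2 and 3 arrays. Retnlg passed the filter on dim probes through the neoplasia arrays alone. Markers of ovarian cell types were mostly lower. Of the oocyte markers 12 of 12 fell, with Padi6, Zar1 and Zp1 at least 218.7-fold, 105-fold and 66.4-fold lower. These 3 are among 8 oocyte markers that passed the filter on dim probes through the wildtype arrays alone. The same held for 3 granulosa cell and 2 luteal cell markers, Fshr, Ptgfr and Lhcgr among them. Genes admitted in this way could hardly be called in the other direction. Among granulosa cell markers 6 of 10 fell and 2 had positive differences, the larger 1.06, including Inha (-9.35), Hsd17b1 (-8.53) and Fshr, at least 33.1-fold lower. All 8 luteal cell markers fell, including Hsd3b1 (-7.90) and, at least 220.2-fold and 119.6-fold lower, Ptgfr and Lhcgr. Of 6 theca and interstitial markers 5 fell, including Hsd3b6 (-9.07), Gli1 (-5.51) and Tcf21 (-3.37, lost without any 1 of 4 arrays).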
